A study of Homo sapiens with 4 samples.

Results

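Feedback regulators of the MAPK pathway were followed as 10 genes that the extracellular signal-regulated kinase (ERK) induces and that restrain or report its activity. They were chosen by name, with earlier results of these data known, and are DUSP4, DUSP5, DUSP6, SPRY2, SPRY4, SPRED1, SPRED2, PHLDA1, ETV4 and ETV5. All 10 were found among the 35211 genes of the deposited count table. RNA had been sequenced from human prostate cancer cells of the established lines DU145 and PC3. Cells of each line carried either a negative control plasmid or an overexpression plasmid for circ0003553, a circular RNA. The sample titles carry the gene name RCAN3 for both plasmids and do not name circ0003553. Each of the 4 groups (control or circ0003553 plasmid in DU145, and the same in PC3) held 1 library, and each line is a long-cultured tumour line, so the lines stand for themselves and not for other tumours. The labels used here give neither the time after transfection nor the promoter that drives the insert. Because the RNA is bulk, fewer cells with a transcript and less of that transcript per cell cannot be told apart.

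In the ERK cascade, ligand-bound receptor tyrosine kinases load RAS with GTP, and RAF, MEK and ERK are then phosphorylated in turn. ERK enters the nucleus and, with ETS-family and other transcription factors, induces its own inhibitors, so the RNA level of these genes is widely read as an output of the pathway. The inhibitors act at several levels: Sprouty proteins (SPRY2, SPRY4) between receptor and RAS, SPRED proteins by bringing the RAS-inactivating protein neurofibromin to the membrane, and dual-specificity phosphatases (DUSP4, DUSP5, DUSP6) by removing phosphates from the MAP kinases themselves. ETV4 and ETV5 are ETS transcription factors induced by the pathway, and PHLDA1 encodes a growth-factor-induced protein with a pleckstrin homology-like domain.

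Promoter sequences (250 bases before to 50 after an annotated start) were found for 6 members in RefSeq's table for GRCh38.p14, with 9 promoters between them. They were searched on both strands for the letters CCGGAA and AGGAAG, which hold the GGAA core bound by ETS factors such as ETV4 and ETV5, for the cAMP-response core TGACG and for TGANTCA. The ETS windows below are shown because ETS factors are both members and known effectors of the pathway. The SPRY4 window holds TGACG, since neither ETS form was in its promoter. Each is 30 bases, 5′ to 3′ on the gene's strand, with the match nearest the start in capitals.
SPRED2: tcggtcgcaagtAGGAAGctttttgcactc
SPRED1: gcccgccgactcCTTCCTggccggaccccg
SPRY2: cctcctcctcctCTTCCTcctcctccgcac
PHLDA1: gaggagaggagtTTCCGGggctcgggtccg
DUSP6: cccttctttctcCTTCCTcccgccgagccc
SPRY4: tcttcggagccgTGACGgactgaattccct

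These windows lie at chr2:65432594-65432623 (SPRED2), chr15:38252807-38252836 (SPRED1), chr13:80341172-80341201 (SPRY2), chr12:76031848-76031877 (PHLDA1), chr12:89352694-89352723 (DUSP6) and chr5:142324298-142324327 (SPRY4). By GENCODE release 29 the SPRY2 window lies outside the gene, and the other windows fall in untranslated exon sequence of at least 1 transcript. CCGGAA or its reverse complement was in 2 of the 9 member promoters, against 17.2% of all 35116 promoters. AGGAAG or its reverse complement was in 7 of the 9, against 33.6%, and TGACG or its reverse complement in 3, against 24.6%. The AP-1 letters TGANTCA were in 1, against 7.71%. The 9 promoters include several starts of SPRY2 and SPRED2 and are not independent, and a match describes letters and is no binding site.

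All members are annotated as protein-coding, and the ends of their exons in the deposited table (hg38) were those of GENCODE release 29. The phosphatase genes lie on chromosome 8 from 29333064 to 29350668 on the minus strand (DUSP4), chromosome 10 from 110497838 to 110511544 on the plus strand (DUSP5) and chromosome 12 from 89347232 to 89353271 on the minus strand (DUSP6). SPRY2 lies on chromosome 13 from 80335976 to 80340951 and SPRY4 on chromosome 5 from 142310427 to 142326455, both on the minus strand. SPRED1 lies on chromosome 15 from 38252326 to 38357249 on the plus strand and SPRED2 on chromosome 2 from 65310851 to 65432637 on the minus strand. PHLDA1 lies on chromosome 12 from 76025447 to 76033932, ETV4 on chromosome 17 from 43527844 to 43579620 and ETV5 on chromosome 3 from 186046308 to 186110318, all on the minus strand.

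Library totals ranged from 33438509 to 39488890 counts assigned to genes, and a floor of 3 counts corresponded to 0.076 to 0.0897 CPM (counts scaled to an equal library total). Every member held at least 215 counts in every library, and all 10 passed the low-count filter. Between 70.3% and 75.3% of counts from 1 to 20 were even, as when a read pair is counted as a pair of reads, so the 95% intervals below come from halved counts. They are exact conditional binomial (Clopper-Pearson) intervals and cover counting error only. RCAN3 had counts of 639 in the DU145 control, 816 with circ0003553 in DU145, 1212 in the PC3 control and 3798 with circ0003553 in PC3. Gene-level counts do not separate its circular from its linear RNA. The epithelial marker EPCAM was at 40.9 and 46.5 RPKM (counts scaled by gene length and library total) in the control and circ0003553 libraries of DU145, and at 32.4 and 29.6 RPKM in those of PC3. Below, a pair of values for a line gives the control library before the circ0003553 library. The epithelial cadherin CDH1 was at 20.5 and 11.0025 RPKM in DU145 and at 0.407 and 0.443 RPKM in PC3, so it was lower with circ0003553 in DU145 and nearly absent in PC3. The keratins KRT8, KRT18 and KRT19 were at 207 to 447 RPKM in DU145 and at 68.0 to 158 RPKM in PC3. CTNNA1, a gene known to be deleted in PC3, was at 0.471 and 0.608 RPKM there, against 44.9 and 47.0 RPKM in DU145. The prostate luminal marker TMPRSS2 had 0 counts in both DU145 libraries and 10 and 8 counts in PC3. Of 5 endothelial markers, KDR was at 7.47 and 6.57 RPKM and PECAM1 at 2.25 and 1.94 RPKM in PC3, with VWF at 0 there. The 4 leukocyte markers found in the table summed to 0.168 to 0.472 RPKM and the 5 fibroblast and smooth muscle markers to 0.551 to 0.85 RPKM. The part of these markers in the results was not tested.

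In DU145, all 10 members were higher in the circ0003553 than in the control library, and in PC3 4 were higher and 6 lower. In DU145 6 of the 10 were at least 1.5-fold higher: ETV4, SPRY4, DUSP5, PHLDA1, ETV5 and DUSP6. Of 17650 genes with at least 50 counts over the DU145 pair, 4.47% were that much higher and 4.73% that much lower. In PC3 0 of the 10 were at least 1.5-fold higher and 0 that much lower, where 3.51% and 2.4% of 17363 genes were. The median log2 ratio of circ0003553 to control was 0.66 for the members in DU145 and -0.05 in PC3, against 0.01 and 0.000555 for all genes counted in the same line. Any excess over control, however small, was seen for 50.8% of genes in DU145 and 50.1% in PC3. With 1 library per group, these ratios have no replicate check and no test.

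**Figure D1:**
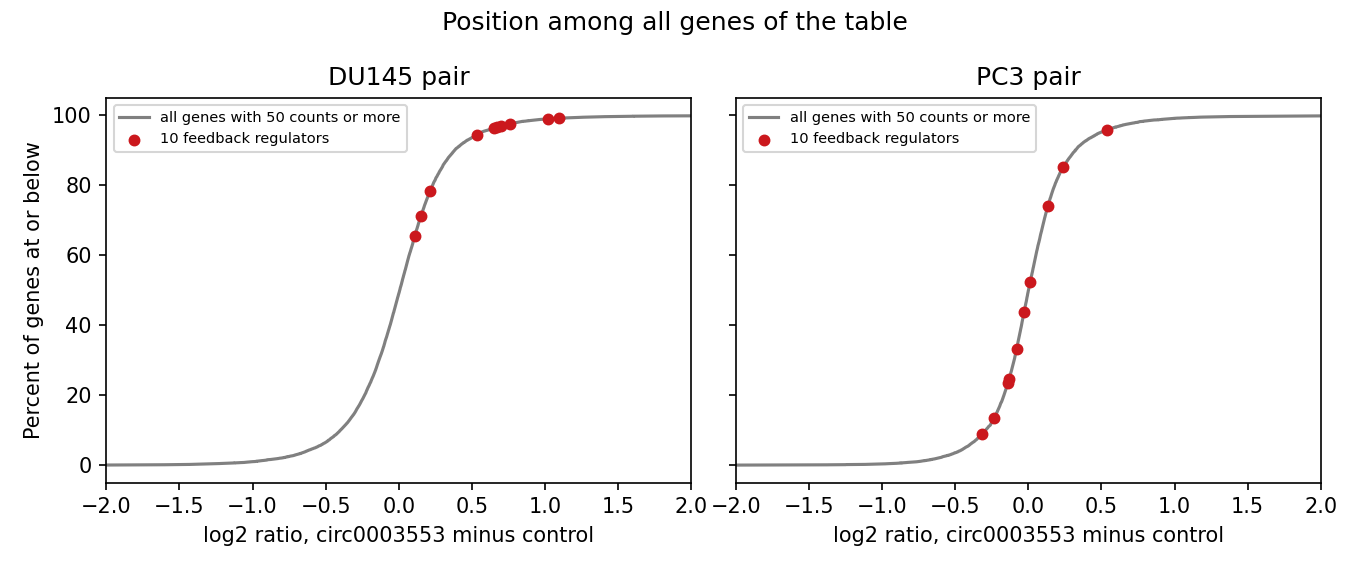
Cumulative distribution of the log2 ratio of circ0003553 to control (x axis) against the percent of genes at or below it (y axis), for the DU145 pair and the PC3 pair. Grey lines are genes with at least 50 counts in the pair that entered the fit and red points are the 10 feedback regulators, which span 0.11 to 1.10 in DU145 and -0.32 to 0.54 in PC3.

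The cytoplasmic ERK phosphatase DUSP6 had counts of 459 and 672 in DU145 and of 1630 and 1570 in PC3. After TMM scaling, the circ0003553 to control ratio was 1.57 in DU145 (95% interval 1.32 to 1.86) and 0.802 in PC3 (0.726 to 0.886). DUSP6 was thus higher with circ0003553 in DU145 and lower in PC3, with neither interval holding 1. DUSP5, a nuclear phosphatase specific for ERK, had counts of 517 and 818 in DU145 and of 883 and 962 in PC3. Its ratio was 1.70 in DU145 (1.45 to 1.99) and 0.907 in PC3 (0.795 to 1.03). By halved counts the PC3 libraries of DUSP5 did not differ beyond counting error, while the interval from full counts was 0.827 to 0.995. The circ0003553 library held more raw counts at its greater depth. DUSP4, a nuclear phosphatase that acts on ERK and other MAP kinases, had counts of 289 and 290 in DU145 and of 4549 and 5165 in PC3. Its ratio was 1.08 (0.847 to 1.36) in DU145 and 0.945 (0.893 to 1.0007) in PC3, with both intervals holding 1. From full counts the PC3 interval of DUSP4 was 0.908 to 0.984. The phosphatases thus had unequal ratios in DU145, where DUSP4 was the lowest of the 10 members.

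The Sprouty genes also had unequal ratios. SPRY4 had counts of 215 and 408 in DU145 and of 2578 and 3034 in PC3, which gave ratios of 2.04 (1.60 to 2.59) and 0.98 (0.909 to 1.06). SPRY2 had counts of 451 and 488 in DU145 and of 761 and 1003 in PC3, with ratios of 1.16 (0.964 to 1.40) and 1.10 (0.958 to 1.26). Only the DU145 ratio of SPRY4 had an interval clear of 1 among these 4 ratios. From full counts the DU145 interval of SPRY2 (1.02 to 1.32) was clear of 1 too. Of the SPRED genes, SPRED2 had counts of 862 and 1163 in DU145 and of 1117 and 1225 in PC3, with ratios of 1.45 (1.28 to 1.65) and 0.913 (0.813 to 1.03). SPRED1 had counts of 610 and 630 in DU145 and of 1492 and 1520 in PC3, with ratios of 1.11 (0.945 to 1.30) and 0.848 (0.766 to 0.94). SPRED1 was thus lower with circ0003553 in PC3 beyond counting error, and SPRED2 higher in DU145 but just short of 1.5-fold.

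Of the ETS factors, ETV4 had counts of 300 and 600 in DU145 and of 1869 and 2264 in PC3. Its ratio of 2.15 in DU145 (1.76 to 2.63) was the highest of any member, beside 1.01 in PC3 (0.924 to 1.10). ETV5 had counts of 1047 and 1552 in DU145 and of 854 and 1210 in PC3, with ratios of 1.59 (1.42 to 1.78) and 1.18 (1.04 to 1.34). ETV5 was thus above its control in both lines. PHLDA1, the most abundant member per length in all 4 libraries, had counts of 3942 and 5946 in DU145 and of 8025 and 14018 in PC3. The DU145 ratio of PHLDA1 was 1.62 (1.53 to 1.72) and the PC3 ratio 1.45 (1.40 to 1.51), just short of 1.5-fold. By halved counts, PHLDA1 and ETV5 were the members with intervals above 1 in both lines, while DUSP6 and SPRED1 were those with an interval below 1 in PC3. The share of all genes with such intervals was not counted. Genes outside the members, EGFR among them, had intervals above 1 in both lines too.

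**Figure D2:**
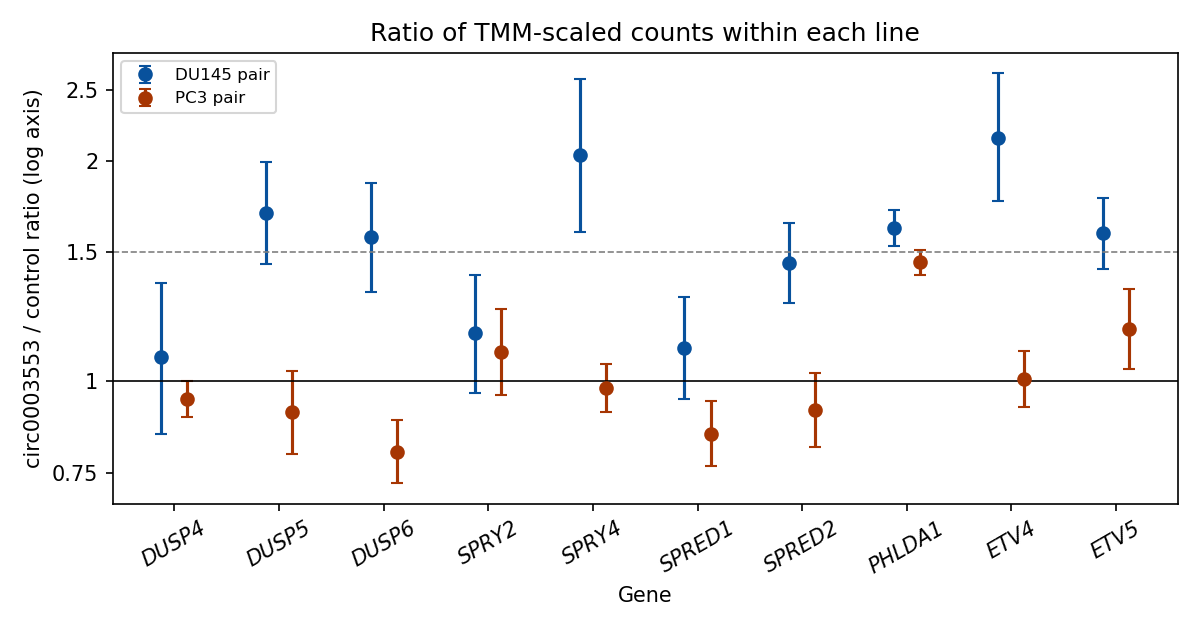
Ratio of TMM-scaled counts, circ0003553 over control (y axis, log scale), for each gene in the DU145 pair (blue) and the PC3 pair (brown), with bars for the 95% counting intervals from halved counts, a solid line at 1 and a dashed line at 1.5. Every DU145 point lies above its PC3 point, from 1.16 against 1.10 for SPRY2 to 2.15 against 1.01 for ETV4.

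The DU145 log2 ratio exceeded the PC3 log2 ratio in all 10 members, where 50.9% of 15868 genes with at least 50 counts in both pairs had that order. The excess was 1.09 on the log2 scale for ETV4, 1.05 for SPRY4, 0.97 for DUSP6, 0.90 for DUSP5 and 0.66 for SPRED2. It was 0.43 for ETV5, 0.39 for SPRED1, 0.19 for DUSP4, 0.16 for PHLDA1 and 0.08 for SPRY2. An interaction of line and plasmid leaves no residual degree of freedom, so this difference between the lines could not be tested. Members higher with circ0003553 in both lines were 4 (SPRY2, PHLDA1, ETV4 and ETV5), against 28.6% of genes.

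The plasmids were compared across lines by edgeR's quasi-likelihood test with the line as a block, which leaves 1 residual degree of freedom beside 13.4 prior degrees drawn from all genes. The labels do not say whether libraries came from separate cultures. Of the 10 members 1 rose, PHLDA1, 0 fell and 9 did not pass the threshold of 0.05 on the adjusted p. Over all 21731 genes tested 0.396% rose and 0.069% fell. PHLDA1 had a fitted log2 fold change of 0.62 ± 0.10 (SE, n = 2 libraries with each plasmid; edgeR's adjusted p = 0.00747), a 1.53-fold rise. That call was lost with limma-voom (adjusted p = 0.0958), without a filter on low counts (0.296) and without the line block (1.0), at log2 fold changes of 0.59 to 0.62. ETV5 followed at 0.46 ± 0.12 (adjusted p = 0.184 by edgeR), ETV4 at 0.48 ± 0.18 (0.435) and SPRY4 at 0.39 ± 0.18 (0.536). The other fitted values ran from -0.06 ± 0.12 for SPRED1 to 0.30 ± 0.17 for DUSP5, with adjusted p-values of 0.677 to 0.995 by edgeR. The median fitted change was 0.25 over the members and 0.00303 over all genes tested.

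PHLDA1, DUSP6, ETV4 and ETV5 share exon bases with other genes, so their counts may hold reads of those genes. PHLDA1 shares 553 exon bases (6.9% of its own) with RP11-290L1.3 on the other strand, which had counts of 2070 and 3457 in DU145 and of 4514 and 7943 in PC3. These were 52.5% to 58.1% of the PHLDA1 counts of the same library. PHLDA1 also shares 779 bases (9.7%) with RP11-290L1.2 on the other strand, which had 4 to 10 counts in each library. DUSP6 shares 1875 bases (40.5%) with a gene on the other strand, whose counts of 373 and 560 in DU145 and of 1338 and 1308 in PC3 were 81.3% to 83.3% of those of DUSP6. ETV4 shares 68 bases (1.9%) with DHX8, whose counts were 150% to 1171% of those of ETV4, and ETV5 164 bases (2.8%) with DGKG, whose counts were 63.8% to 93.2% of those of ETV5. The counts of DHX8 did not keep a narrow proportion to those of ETV4 over the libraries, while those of RP11-290L1.3 and of the gene overlapping DUSP6 did to those of their members. How far reads of these genes enter the results was not tested.

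Between the lines, most members were higher in PC3. By edgeR's quasi-likelihood test in the same fit, 8 of the 10 were higher in PC3, 0 lower, and SPRED2 and ETV5 did not pass the threshold. The 2 libraries of a line carried different plasmids and served as its replicates in this fit. The lines differ widely, since 33.1% of the 21731 genes were called higher in PC3 and 32.9% lower. The median log2 fold change of PC3 to DU145 was 1.31 over the members and 0.000991 over all genes tested. Both PC3 libraries exceeded both DU145 libraries in TMM-scaled CPM for 8 members, against 40.9% of genes.

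DUSP4 had the widest gap, at 1.05 and 1.10 RPKM in the DU145 control and circ0003553 libraries and 18.7 and 18.0 in PC3. Its log2 fold change of PC3 to DU145 was 4.17 ± 0.12 (SE, n = 2 libraries per line; adjusted p = 5.26e-13, edgeR), or 18.0-fold. SPRY4 was at 0.953 and 1.89 RPKM in DU145 and 13.0 in both PC3 libraries, 9.93-fold higher in PC3 (log2 3.31 ± 0.19, adjusted p = 8.31e-10 by edgeR). ETV4 was at 2.19 and 4.56 RPKM in DU145 and 15.5 and 15.9 in PC3, 5.11-fold higher (log2 2.35 ± 0.19, adjusted p = 3.77e-08 by edgeR). For these 3 genes every PC3 library was far above every DU145 library. DUSP6 was at 2.60 and 3.98 RPKM in DU145 and 10.5 and 8.58 in PC3, and SPRED1 at 1.94 and 2.09 against 5.40 and 4.66. They were 3.08-fold and 2.62-fold higher in PC3 (adjusted p = 9.84e-07 and 1.44e-07 by edgeR). PHLDA1 was at 12.8 and 20.2 RPKM in DU145 and 29.7 and 44.0 in PC3, and SPRY2 at 3.90 and 4.41 against 7.49 and 8.36, which were 2.36-fold and 2.00-fold higher (adjusted p = 3.93e-08 and 4.66e-06 by edgeR). The ranges of the lines did not overlap for any of these 7 genes.

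**Figure D3:**
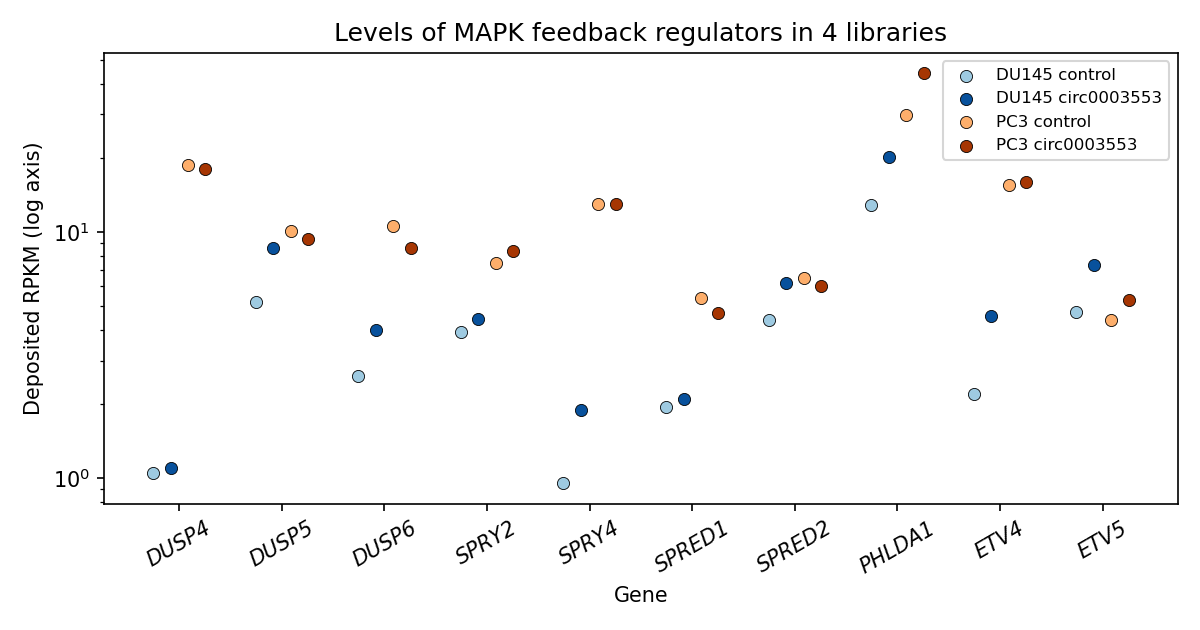
Deposited RPKM (y axis, log scale) of each gene in the 4 libraries, 1 point per library and no error bar since each group is 1 library. DUSP4 and SPRY4 show the widest gap between the lines, with PC3 at 18.7 and 18.0 and at 13.0 RPKM, while the points of ETV5 and SPRED2 intermingle.

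The remaining members were closer between lines. DUSP5 was at 5.20 and 8.58 RPKM in DU145 and 10.1 and 9.32 in PC3, a log2 fold change of 0.60 ± 0.17 (adjusted p = 0.00588, edgeR), and this call was lost with DESeq2 (0.102) and without a filter on low counts (0.0677). SPRED2 was at 4.40 and 6.19 RPKM in DU145 and 6.48 and 6.02 in PC3 (log2 0.33 ± 0.14, adjusted p = 0.0539 by edgeR). ETV5 was at 4.74 and 7.34 RPKM in DU145 and 4.40 and 5.28 in PC3 (log2 -0.23 ± 0.12, adjusted p = 0.12 by edgeR). The ranges of the lines overlapped for SPRED2 and ETV5.

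The gap between lines under each plasmid differed among the members. From TMM-scaled counts, PC3 exceeded DU145 14.7-fold for SPRY4 under the control plasmid and 7.05-fold under circ0003553, and 7.62-fold and 3.58-fold for ETV4. The folds were 4.34 and 2.22 for DUSP6, 2.09 and 1.12 for DUSP5, and 1.58 and 0.999 for SPRED2. For DUSP4 they were 19.3 and 16.9, for SPRED1 2.99 and 2.29, for PHLDA1 2.49 and 2.24 and for SPRY2 2.06 and 1.95. For ETV5 the fold fell too, from equal levels (0.998) under the control plasmid to 0.739 under circ0003553, so that PC3 was then the lower line. These folds rest on the same 4 libraries as the ratios within lines, and the change in the gap was not tested.

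**Figure D4:**
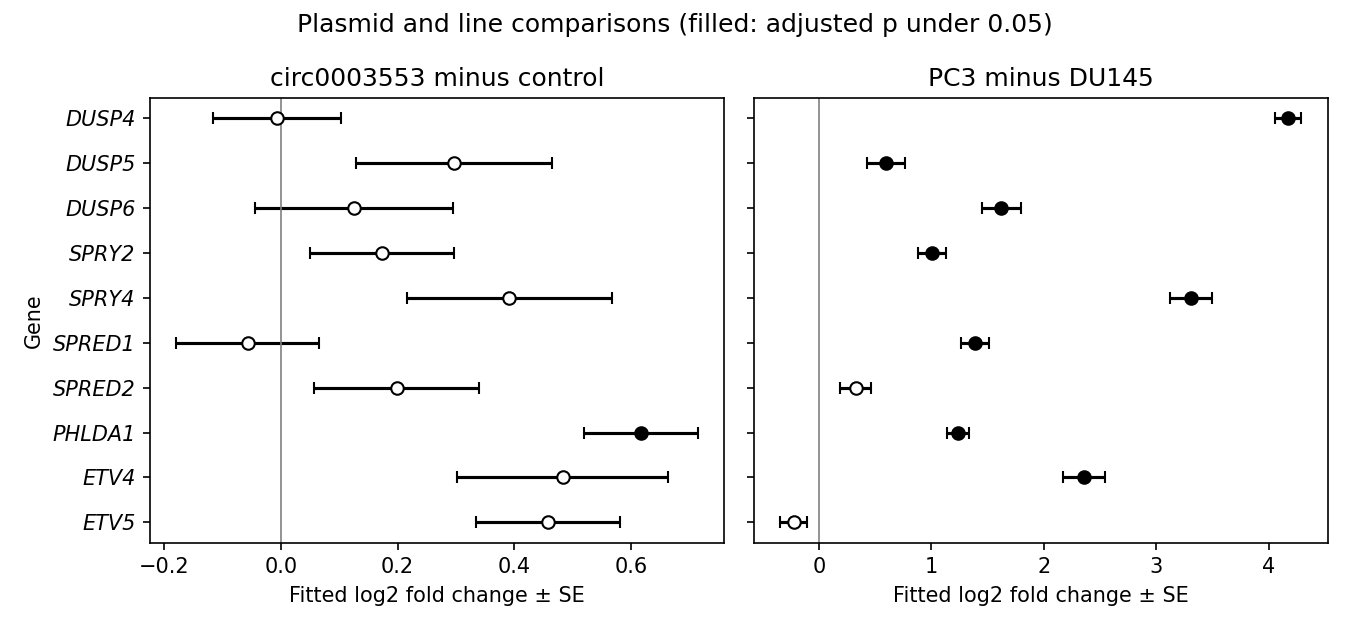
Fitted log2 fold change (x axis, points) ± SE (bars) of each gene for circ0003553 minus control (left) and PC3 minus DU145 (right), n = 2 libraries per arm, with filled points for an adjusted p under 0.05 by edgeR. PHLDA1 at 0.62 is the filled point on the left, and 8 genes are filled on the right, up to 4.17 for DUSP4.

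Paralogs among the members took different shares of their summed RPKM in the lines. DUSP5 made up 58.7% and 62.8% of the summed RPKM of DUSP4, DUSP5 and DUSP6 in the DU145 control and circ0003553 libraries, and 25.7% and 25.9% in PC3. DUSP4 made up 11.8% and 8.03% in DU145 and 47.6% and 50.2% in PC3. Among these 3 phosphatases, DUSP5 thus led per length in both DU145 libraries and DUSP4 in both PC3 libraries. DUSP1, a phosphatase outside the 10 members, was higher than DUSP5 in DU145, at 14.7 and 21.1 RPKM, and stood at 6.87 and 7.60 in PC3. SPRY4 made up 19.6% and 29.99% of the sum of SPRY2 and SPRY4 in DU145 and 63.4% and 60.8% in PC3. ETV4 made up 31.5% and 38.3% of the sum of ETV4 and ETV5 in DU145 and 77.9% and 75.1% in PC3. In both pairs of members the leading paralog changed from SPRY2 and ETV5 in DU145 to SPRY4 and ETV4 in PC3, in each library of the line. SPRY1 and ETV1 are not members and were left out of these sums. SPRY1 was at 0.378 and 0.671 RPKM in DU145 and 6.60 and 5.48 in PC3. ETV1 was at 0.00547 and 0.0114 RPKM in DU145 and 2.76 and 2.96 in PC3. SPRED2 led SPRED1 in all 4 libraries, at 69.4% and 74.7% in DU145 and 54.5% and 56.4% in PC3. The summed RPKM of the 10 members was 39.8 and 60.3 in DU145 and 121 and 133 in PC3, of which PHLDA1 made up 24.5% to 33.5%.

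**Figure D5:**
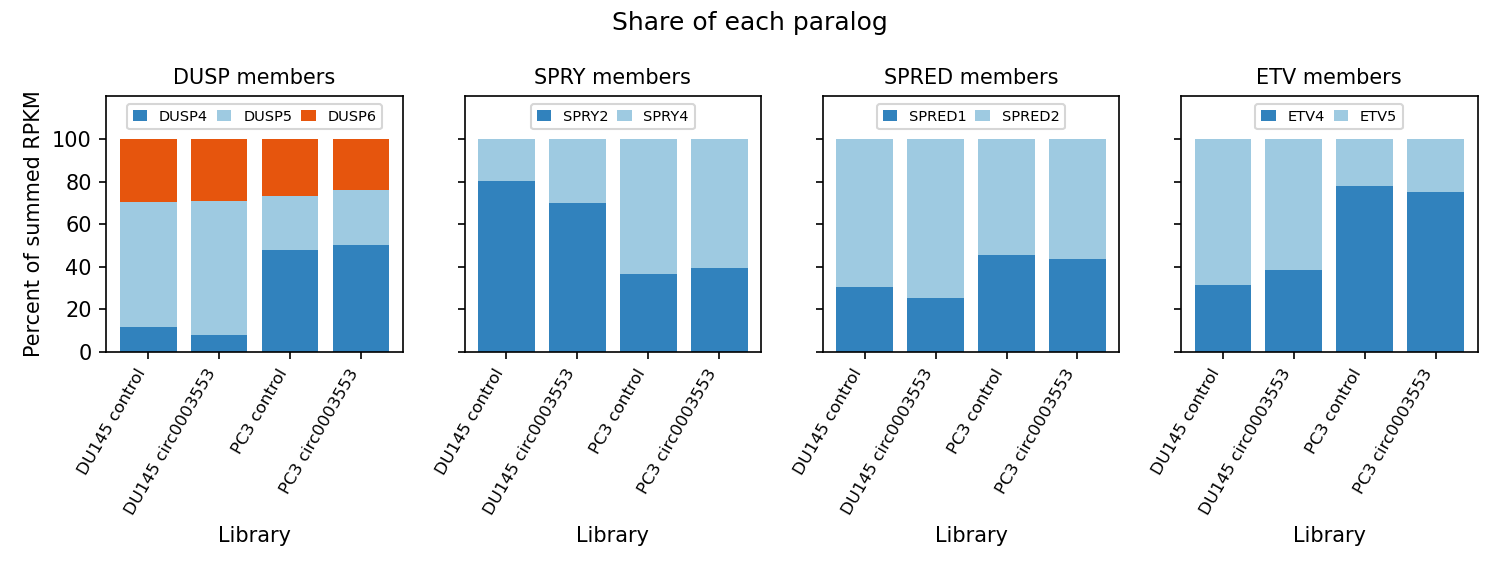
Percent of the summed RPKM of the members of each family (y axis, stacked bars from 0) taken by each paralog in each library (x axis). DUSP4 takes 47.6% and 50.2% of the phosphatase sum in PC3 against 11.8% and 8.03% in DU145, and SPRY4 and ETV4 hold the larger share of theirs in PC3.

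By level in RPKM, PHLDA1 stood first in every library. In the DU145 control it was followed by DUSP5, ETV5, SPRED2 and SPRY2, and in the PC3 control by DUSP4, ETV4, SPRY4 and DUSP6. The lowest members were SPRY4 and DUSP4 in the DU145 control, at 0.953 and 1.05 RPKM, and ETV5 and SPRED1 in the PC3 control, at 4.40 and 5.40. With 1 library per group, error beyond counting could not be estimated for the order of neighbours. The genes whose pattern over the 4 libraries was nearest to that of DUSP6, by Euclidean distance of centred log2 CPM among 5168 genes whose log2 CPM averaged 5 or more, were MT-TS2 (distance 0.0315), MT-TH (0.0367) and MT-TL2 (0.13). MT-TS2 had counts of 2725 and 3975 in DU145 and of 9794 and 9524 in PC3. The log2 ratios of circ0003553 to control were 0.65 in DU145 and -0.30 in PC3 for MT-TS2, 0.62 and -0.31 for MT-TH and 0.78 and -0.20 for MT-TL2, beside 0.65 and -0.32 for DUSP6. All mitochondrially encoded genes together took 6.28% and 4.96% of counts in DU145 and 6.88% and 6.34% in PC3.

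Other genes of the pathway were followed in 7 lists with 69 entries, of which 68 were tested. None of them was called in the plasmid comparison by edgeR's quasi-likelihood test, by DESeq2 or by limma-voom. DESeq2 gave some of these genes, such as DUSP10 and FGF1, no adjusted p. At an unadjusted p under 0.05 stood 12 of the 68 by edgeR (11 of them with a higher fitted value), 4 by DESeq2 and 11 by limma-voom. Over all 21731 genes the counts were 1929 by edgeR, 501 by DESeq2 and 1642 by limma-voom. The 7 other dual-specificity MAP kinase phosphatases had a median fitted log2 fold change of 0.35. Over the 6 with at least 50 counts in a line, the median log2 ratio was 0.57 in DU145 and 0.25 in PC3. The highest was DUSP10, which acts on p38 and JNK kinases, at 0.88 ± 0.26 (adjusted p = 0.25, edgeR), with counts of 30 and 64 in DU145 and of 102 and 204 in PC3. The lowest was DUSP9 at -0.28 ± 0.34 (0.887 by edgeR's adjusted p), with counts of 94 and 38 in DU145 and of 62 and 102 in PC3. DUSP10 was thus above its control in both lines, and DUSP9 below it in DU145 and above it in PC3.

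Among 12 other ERK target genes tested, the median log2 ratio was 0.43 in DU145 and 0.03 in PC3, with 11 genes at 50 counts or more in DU145 and 10 in PC3. In DU145 3 of the 11 were at least 1.5-fold higher and 1, FOS, that much lower, beside 4.47% and 4.73% of all genes. In PC3 0 of the 10 were that much higher or lower, beside 3.51% and 2.4%. Their fitted extremes were the ephrin receptor EPHA4 at 0.56 ± 0.23 (adjusted p = 0.494, edgeR) and the immediate early gene FOS at -0.27 ± 0.41 (0.918). FOS had counts of 66 and 40 in DU145 and of 8 and 18 in PC3. Among 10 other inhibitors of receptor and RAS signalling, the median log2 ratio was 0.23 in DU145 and -0.02 in PC3, where 9 of them had at least 50 counts. SPRY3 had the highest fitted change, 0.54 ± 0.58 (adjusted p = 0.866, edgeR), with counts of 26 and 46 in DU145 and of 6 and 0 in PC3, and IL17RD the lowest at -0.25 ± 0.20 (0.803). SPRY1, another Sprouty gene, had counts of 57 and 97 in DU145 and of 875 and 858 in PC3, with log2 ratios of 0.85 and -0.29.

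The 14 genes of the RAS, RAF, MEK and ERK kinase list, which also holds the ERK substrates RPS6KA1, RPS6KA3 and ELK1, had median log2 ratios of -0.04 (DU145) and 0.01 (PC3). In either line 0 of the 14 were at least 1.5-fold apart. Of all genes, 4.47% were that much higher and 4.73% lower in DU145, and 3.51% and 2.4% in PC3, so a count of 0 among 14 is near those shares. Fitted changes of the 14 ran from -0.18 ± 0.11 for RPS6KA3 (adjusted p = 0.696, edgeR) to 0.05 ± 0.10 for MAP2K1, which encodes MEK1 (0.944). The 6 adaptor and exchange factor genes ran from -0.09 ± 0.12 for SOS2 (0.907 by edgeR) to 0.02 ± 0.11 for SOS1 (0.984). Of the 9 receptors, EGFR had the highest fitted change, 0.26 ± 0.10 (adjusted p = 0.444, edgeR), with counts of 10284 and 12354 in DU145 and of 6177 and 8241 in PC3. The lowest receptor was FGFR2 at -0.72 ± 0.51 (0.761 by edgeR's adjusted p), with 2 and 6 counts in PC3. The 10 ligands had median log2 ratios of 0.05 (DU145, 9 genes with at least 50 counts) and 0.21 (PC3, 8 such genes). In each line 2 ligands were at least 1.5-fold higher, and 1 was that much lower in DU145, beside the shares of all genes given above. Of the ligands, FGF1 was highest at 1.004 ± 0.29 (adjusted p = 0.233, edgeR), with counts of 20 and 75 in DU145 and of 125 and 234 in PC3. NRG1 was lowest at -0.30 ± 0.38 (0.899). FGF1 was above its control in both lines, as EGFR was.

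Between lines the pathway lists went both ways, beside 33.1% of all genes called higher in PC3 and 32.9% lower. Of 10 inhibitors of receptor and RAS signalling 3 were higher in PC3 and 5 lower by edgeR's quasi-likelihood test. SPRY1 was 12.1-fold higher in PC3 (adjusted p = 1.72e-09, edgeR), in the direction of SPRY4 and SPRY2. NF1, which encodes the neurofibromin that SPRED proteins bind, was 4.64-fold lower in PC3 (adjusted p = 3.71e-10, edgeR), with counts of 2837 and 2629 in DU145 and of 547 and 546 in PC3. Of 12 other ERK target genes 10 were higher in PC3 and 2 lower. ETV1, of the same ETS subfamily as ETV4 and ETV5, had counts of 2 and 4 in DU145 and of 889 and 1124 in PC3 (adjusted p = 1.75e-12, edgeR). EGR1 went the other way, with counts of 386 and 300 in DU145 and of 2 and 12 in PC3 (adjusted p = 1.47e-09, edgeR). Of 7 other phosphatases 4 were higher and 1 lower, among them DUSP7 4.47-fold higher and DUSP1, an early-induced nuclear phosphatase, 2.33-fold lower in PC3 (adjusted p = 3.72e-08 and 9.54e-07 by edgeR).

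Of 9 receptors 2 were higher in PC3 and 6 lower by the same test. IGF1R was 3.64-fold and ERBB3 1.74-fold lower in PC3 (adjusted p = 2.03e-09 and 3.69e-05 by edgeR). Of 10 ligands 4 were higher and 5 lower, and the EGFR ligand AREG was 15.5-fold lower in PC3 (adjusted p = 1.77e-12, edgeR), with counts of 8796 and 8491 in DU145 and of 394 and 670 in PC3. EREG, another EGFR ligand, had 1823 and 1515 counts in DU145 and 8 in each PC3 library. Of the 14 genes of the kinase list 5 were higher and 5 lower, with the scaffold KSR1 2.496-fold lower in PC3 (adjusted p = 6.54e-06 by edgeR). Of 6 adaptor and exchange factor genes 2 were higher and 2 lower, with SHC1 3.95-fold and SOS2 1.47-fold lower (adjusted p = 2.28e-10 and 0.000688 by edgeR).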

How the data were processed

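RNA was measured in 4 libraries, 1 per line and plasmid. Total RNA was, per the labels' protocols, depleted of ribosomal RNA and made into strand-specific libraries with 8-base molecular identifiers. The build hg38, Subread 1.5.1 with featureCounts, Trimmomatic 0.36 and edgeR 3.12.1 appear in the submitters' processing notes. Not given in the sources used here are the aligner, the strand setting and the use of the identifiers. Raw counts per gene were deposited, as were RPKM values, which equalled counts divided by gene length and library total. Columns carrying NC were taken as the control plasmid, and the others as circ0003553.

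Counts were fitted with edgeR 4.0.16 (R 4.3.3, additive model of line and plasmid, TMM scaling, low-count filter by plasmid, Benjamini-Hochberg adjustment over 21731 genes). The fit was checked on simulated data whose plasmid changes were equal in both lines, so the check does not cover changes that differ between lines. The SE was taken from the F statistic, as the size of the fitted change over the square root of F. The pairing by line comes from the labels. Ratios within a line used TMM-scaled CPM, and log2 ratios a prior count of 2. Alternatives used DESeq2 1.42.0, limma 3.58.1, other scalings, filters, halved counts and genes sharing no exon base. All members were named. Of each other list, the highest and lowest fitted plasmid change and up to 4 genes by smallest adjusted p were eligible for naming, and 2 by line were used. The members and lists were chosen with earlier results of these data known. Some genes of these lists are not reported here.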

Additional observations from a re-analysis of the deposited data

Results flagged for a closer look

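In 6 of the 10 members the DU145 pair and the PC3 pair moved in opposite directions, higher with circ0003553 in DU145 and lower in PC3. This difference between the lines was not tested. Among all genes with at least 50 counts, 50.8% were higher in DU145, 50.1% in PC3 and 28.6% in both, so opposite directions are common and not particular to the members. The log2 ratios in DU145 and PC3 were 0.65 and -0.32 for DUSP6, 0.76 and -0.14 for DUSP5 and 0.11 and -0.0809 for DUSP4. They were 1.02 and -0.0291 for SPRY4, 0.53 and -0.13 for SPRED2 and 0.15 and -0.24 for SPRED1. Only DUSP6 had intervals from halved counts that were clear of 1 in both lines. By those intervals, at least 1 of the directions lay within counting error for the other 5. From full counts, the PC3 intervals of DUSP5 (0.827 to 0.995) and SPRED2 (0.841 to 0.991) also lay below 1, with their DU145 intervals above 1.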

How the results depend on the processing

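Each line and plasmid had 1 library, so only counting error could be estimated within a line, and the tests rest on 1 residual degree of freedom. The 86 genes higher with circ0003553, of 21731 tested, became 49 with DESeq2, 26 with limma-voom, 50 with legacy dispersions and 9 without a filter on low counts. They became 55 with mitochondrially encoded genes left out and 0 without the replicate block of cell line (26 genes at an unadjusted p under 0.05). Among genes sharing no exon base they were 44, of only 10797 tested. The 15 lower became 8 with halved counts, 4 among genes sharing no exon base, 3 each with legacy dispersions and without mitochondrially encoded genes, and 0 with limma-voom, without a filter and without the block. The 1 member called higher became 0 with limma-voom, without a filter, without the block and among genes sharing no exon base, where PHLDA1 itself is not included. That last setting tested 10797 genes, with 3588 higher and 3452 lower in PC3, and 5 members in place of 8. It left out DUSP6, PHLDA1 and ETV4, which share exon bases, and every other member called higher in PC3 was still called.

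Directions of the plasmid comparison reversed for DUSP6 without the block (-0.079) and DUSP4 among genes sharing no exon base (0.00498). They also reversed for SPRY3 with DESeq2 (-1.46) and limma-voom (-0.29), and for FOS (0.0847) and NRG1 (0.22) with DESeq2. None of these was called under either setting, but DESeq2 gave SPRY3, FOS and NRG1 no adjusted p. The cause of these reversals was not tested. Of 233 values of named genes in the plasmid comparison, 224 kept direction and side of the threshold under the alternatives that kept both lines. For every gene but PHLDA1 the kept side meant only staying uncalled, and a missing adjusted p counted as not called. PHLDA1, the only named gene called in the main fit, lost its call under 3 alternatives. Between lines 227 of 231 values kept both. There SPRED2 passed with DESeq2 size factors (adjusted p = 0.0489 by edgeR) and ETV5 with scaling by total counts (0.0461, edgeR). The members at least 1.5-fold higher in DU145 became 2 at 2-fold, and no member changed direction within a line under any scaling, halving or prior count tried.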
